A study of Caenorhabditis elegans with 2 samples.

Results

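Divergent promoter regions are stretches of chromatin between a pair of neighbouring genes that are read away from each other, so that a single short sequence lies upstream of both. The regions described here came from ChIP-seq, in which chromatin bound by a protein is precipitated and sequenced, of the nuclear hormone receptor NHR-10 in whole L2 larvae of Caenorhabditis elegans. They were chosen by position alone, from the pooled region list on the ce11 build. A region was taken if it was autosomal and its summit lay between the transcription start site (TSS) of a protein-coding gene on the minus strand at its left and that of one on the plus strand at its right, each within 1000 bp. The rule found 890 regions of the 30000 in the pooled list, or of the 24168 on autosomes. They fell between 806 gene pairs made of 1592 genes.

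The study had 1 group with 2 biological replicates, both of strain OP239, genotype unc-119(ed3) III; wgIs239, at the L2 stage with the age given as unknown. This line carried NHR-10 fused at its C terminus to a GFP-FLAG tag, males and females were pooled, and the chromatin was broken by sonication. The material was the whole animal, so binding in few cells and weak binding in many cells cannot be told apart, and no tissue was separated that markers could check. The control library that the labels name was not analysed here, and there was no comparison group. Each region carries a signal value, which is the authors' own number per region on a scale that the sources used here do not define. The optimal IDR list, thresholded by the rank agreement of the replicates (irreproducible discovery rate), held the 491 regions of highest pooled signal, all at 27.4 or above. Depth is unknown, since the lists hold no counts of reads, and the exact 95% Clopper-Pearson intervals given in parentheses cover counting error only. No test was made between classes of regions, because regions of 1 pair of libraries are not replicates.

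Gene pairs arranged head to head are common in compact genomes such as that of the worm, and the members of a pair can share control elements. Many worm transcripts are trimmed and joined to a spliced leader, so an annotated start often marks the trans-splice site and the true start can lie further upstream. NHR-10 is known as a partner of the receptor NHR-68 in activating genes of the propionate shunt, a route of propionate breakdown that does without vitamin B12.

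The sequences around the summits of 6 divergent promoter regions are shown because these had the highest signal among those on II to V whose window was clear of annotated exons. Each is the plus strand of WBcel235, the ce11 assembly, read from the RefSeq genome, with 50 bases on either side of the summit. Capitals mark matches on either strand to any of 7 words searched for. These were GAGAGA, the nuclear receptor sites AGTTCA and AGGTCA, the GATA factor site TGATAA, the E-box CACGTG, and the words TGACGT and also GACGCA.
H12C20.7 and nhr-68, chrV:11573009-11573109: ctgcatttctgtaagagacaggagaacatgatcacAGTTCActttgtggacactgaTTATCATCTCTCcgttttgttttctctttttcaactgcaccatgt
rpl-20 and Y17G9B.5, chrIV:4750014-4750114: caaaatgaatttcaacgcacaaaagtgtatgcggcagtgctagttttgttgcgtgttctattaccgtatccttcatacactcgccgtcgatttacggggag
rpl-15 and K11H12.8, chrIV:654896-654996: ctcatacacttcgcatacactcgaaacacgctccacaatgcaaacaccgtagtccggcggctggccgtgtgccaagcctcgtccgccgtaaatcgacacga
drr-2 and set-16, chrIII:13643664-13643764: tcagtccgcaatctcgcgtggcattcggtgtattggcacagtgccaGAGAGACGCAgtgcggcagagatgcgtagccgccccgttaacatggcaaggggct
cct-8 and Y55F3AR.2, chrIV:1094310-1094410: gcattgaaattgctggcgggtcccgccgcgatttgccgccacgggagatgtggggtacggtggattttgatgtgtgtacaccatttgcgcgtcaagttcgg
Y22D7AL.10 and hsp-60, chrIII:1619047-1619147: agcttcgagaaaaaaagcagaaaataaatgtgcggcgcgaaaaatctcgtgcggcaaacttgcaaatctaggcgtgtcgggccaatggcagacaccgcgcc

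The window between H12C20.7 and nhr-68 held 3 matches, to AGTTCA, to TGATAA on the minus strand and, directly beside it, to GAGAGA on the minus strand. The window between drr-2 and set-16 held GAGAGA and GACGCA, which overlapped there. The other 4 windows held none of the 7 words. GC content of these windows was lowest, at 39.6%, between H12C20.7 and nhr-68 and highest, at 60.4%, between drr-2 and set-16.

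A higher share of divergent promoter regions than of the other position classes on autosomes was in the optimal IDR list. Of the 890, 101 were in it, or 11.3% (9.34 to 13.6), against 1.63% of all autosomal pooled regions and 1.64% of the whole pooled list. Autosomal one-directional promoter regions, whose summits lay within 1000 bp upstream of a TSS without meeting the rule for a pair, numbered 4921, and 165 of them, or 3.35% (2.87 to 3.89), were in the list. The share was 0.403% (0.230 to 0.653) of 3975 regions that lay only downstream of a TSS within 1000 bp, and 0.772% (0.635 to 0.929) of 14382 regions further away. The 101 regions made up 20.6% of the optimal list and 25.7% of its 393 autosomal peaks. A further 8 divergent promoter regions were overlapped by a peak of the list without being one of its regions.

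The share was lower by the peaks of replicate 1 than by those of replicate 2, and in both it stood above that of one-directional regions. The list of replicate 1 was shorter, with 22993 regions, than that of replicate 2, with 30000. With the 491 regions of highest signal of replicate 2 taken as peaks in place of the optimal list, 109 divergent promoter regions were overlapped, or 12.2% (10.2 to 14.6), against 3.88% of one-directional ones and 2.02% of the pooled list. With those of replicate 1, the 64 overlapped were 7.19% (5.58 to 9.09), against 3.11% of one-directional ones and 2.03% of the pooled list. The share without replicate 2 was thus lower by more than 1.5 times than the 11.3% of regions identical to one of the optimal list. Counted by overlap, as for the replicates here, the optimal list gave 12.2%, so this held by either count.

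The rule takes the nearer of a pair of TSSs, which by itself shortens the distance from a divergent summit to a TSS, so divergent and one-directional regions were set side by side within bins of the distance from the summit to the nearer upstream TSS, a split chosen after the data were seen. Up to 100 bp, 32 of 247 divergent regions were in the optimal list, or 13.0% (9.03 to 17.8), against 4.17% (2.74 to 6.05) of 624 one-directional ones. Between 100 and 200 bp the shares were 17.0% (12.5 to 22.4) of 241 and 5.05% (3.50 to 7.01) of 654. Between 200 and 400 bp they were 8.80% (5.60 to 13.0) of 250 and 4.77% (3.59 to 6.19) of 1112, and beyond 400 bp they were 3.95% (1.46 to 8.39) of 152 and 2.09% (1.57 to 2.73) of 2531. The divergent share was the higher of the pair in each of the 4 bins, but the intervals were clear of each other only within 200 bp.

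**Figure D1:**
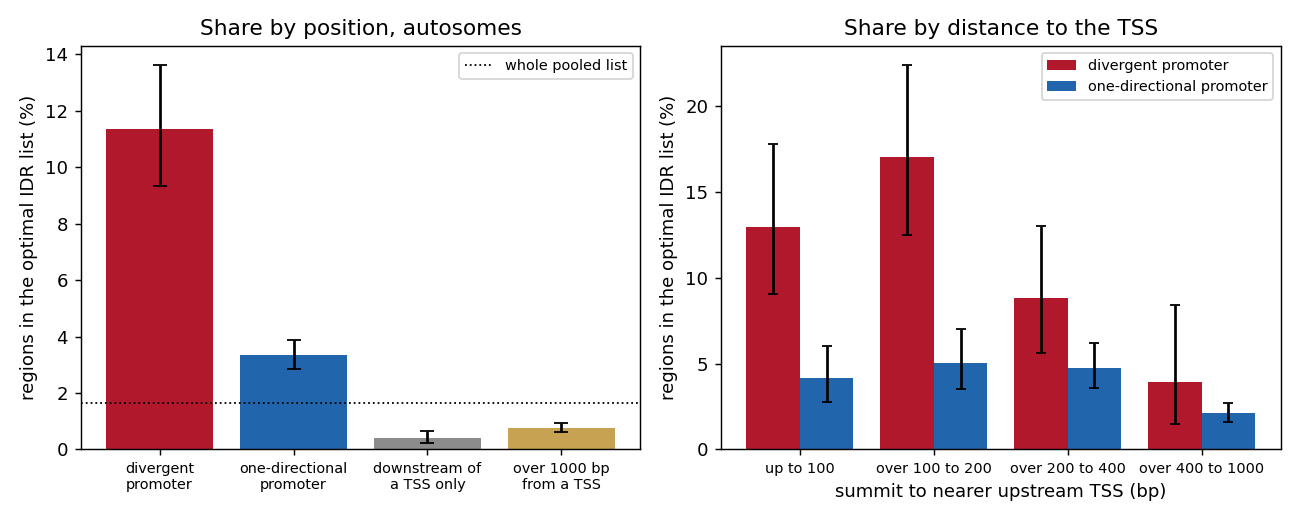
Left, the share of pooled autosomal regions in the optimal IDR list (percent) by position, with exact 95% binomial intervals as error bars and the whole pooled list as a dotted line. Right, the same share in bins of the distance from the summit to the nearer upstream TSS, with 32 of 247 divergent regions in the list up to 100 bp and 6 of 152 beyond 400 bp.

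Base composition moved with membership of the optimal list in each position class, not in promoters alone. Within 100 bp of the summit the median GC content was 42.8% in the 101 divergent regions of the list and 34.8% in the other 789. In one-directional regions it was 41.8% in the list and 34.3% outside it. It was 49.3% and 35.3% in regions only downstream of a TSS, and 47.3% and 34.8% in those further away. In windows of over 45% GC, 33 of 98 divergent regions were in the list (33.7%, 24.4 to 43.9), against 11.5% (8.65 to 14.9) of 435 one-directional ones. At 30 to 35% GC the shares were 2.97% (1.29 to 5.78) of 269 and 1.38% (0.832 to 2.14) of 1379. Over the 5 GC bins, also chosen after the data were seen, the divergent share was the higher in each. The part of GC content in the signal was not tested.

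Counted by gene pair, a pooled region was about as common at divergent pairs as at other genes, while a peak of the optimal list was found at a larger share of pairs. The annotation held 2382 autosomal divergent pairs with their TSSs no more than 2000 bp apart and no other protein-coding TSS of either facing direction between them. Of these, 760 held a region, or 31.9% (30.04 to 33.8), against 30.4% (29.6 to 31.2) of 12478 other autosomal protein-coding genes with a summit in the 1000 bp upstream. A region in the optimal list was found at 100 of these pairs, or 4.198% (3.43 to 5.08), against 148 of the other genes, or 1.19% (1.00 to 1.39). A pair holds the upstream sequence of both of its genes, so pairs and single genes are not the same unit. The length searched differed too, with a median of 658 bp between the TSSs of a pair and 1000 bp upstream of each other gene. Of the 806 pairs with a region, 723 had 1 region, 82 had 2 and 1 had 3, and no pair had more than 1 region in the optimal list.

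Signal of the divergent promoter regions ran from 6.00 to 151, with a median of 10.9 (10.4 to 11.3) and quartiles of 7.75 and 16.5. The median was 8.86 in one-directional regions, 8.24 in regions only downstream of a TSS, 8.18 in those further away and 8.38 over the pooled list. Among the regions in the optimal list the median was 40.1 for divergent promoters and 36.0 for one-directional ones. The highest divergent region ranked 13 in the pooled list, and the lowest in the optimal list ranked 484. The signals on either side of that limit were 27.6 and 27.3.

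**Figure D2:**
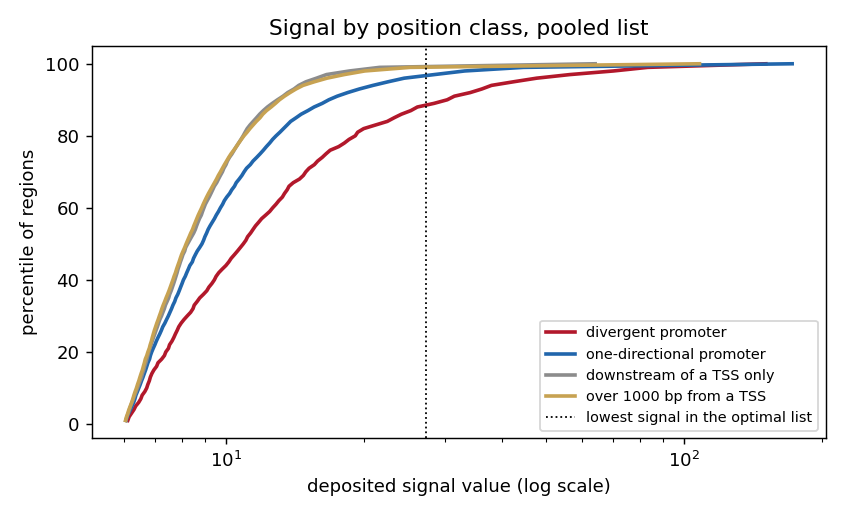
Cumulative distribution of the deposited signal value (horizontal, log scale) over pooled autosomal regions of each position class, with the percentile of regions on the vertical axis and the lowest signal of the optimal list, 27.4, as a dotted line. The curve of divergent promoter regions, with its median of 10.9, lies to the right of the others at each percentile plotted up to 99, while the maximum is 151 for divergent and 172 for one-directional regions.

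The region of highest signal lay between the divergent genes H12C20.7 and nhr-68, the second of which encodes the partner receptor of NHR-10 in the propionate shunt. Its summit at 11573059 on V had signal 151 in the pooled list. The matching summit had signal 29.3 and rank 19 in replicate 1, and signal 120 and rank 12 in replicate 2. It was high in both libraries. The summit was 69 bp from the TSS of H12C20.7 and 381 bp from that of nhr-68.

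Genes of cytoplasmic ribosomal proteins, the building blocks of the ribosome, were partners in many of the highest regions. In all, 38 of the 79 autosomal genes of this list were in divergent pairs with a region, and 14 of the 38 were in a pair with a region in the optimal list (36.8%), against 12.7% of all 1592 genes of such pairs. At rpl-20 and Y17G9B.5 the signal was 130 in the pooled list, 31.6 in replicate 1 (rank 16) and 98.6 in replicate 2 (rank 19). At rpl-15 and K11H12.8 it was 110, 25.5 (rank 24) and 85.2 (rank 24). Both were high in each replicate. Next came rps-19 with hsr-9, a homologue of the DNA damage protein 53BP1, at 95.2 in the pooled list, and rps-12 with the kinetochore gene ska-3 at 82.4. Replicate 1 placed the region of rps-19 at rank 45 and that of rps-12 at rank 91, and replicate 2 placed them at ranks 34 and 43.

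Other ribosomal protein regions among the 20 highest were those of rps-1 with ifet-1, which encodes a binding partner of the cap-binding protein eIF4E (82.4), and rpl-12 with lin-54, a subunit of the DREAM repressor complex (79.9). The regions of rps-20 with ekl-4 (71.3) and rps-15 with F36A2.9 (70.7) followed. The region of rps-15 ranked 180 in replicate 1 and 78 in replicate 2. Of 3 divergent regions with a ribosomal protein gene on each side, 1 was in the optimal list, that of rps-14 and rpl-36. It had signal 36.5, rank 558 in replicate 1 and rank 318 in replicate 2. In the 12 regions of the optimal list with a ribosomal protein gene on 1 side alone, the summit was closer to that gene in 5 and closer to its partner in 7. The median distance was 272 bp to the ribosomal protein gene and 184 bp to the partner.

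Genes of protein synthesis and folding formed the next group. Of all genes of divergent pairs, 12.7% were in a pair with a region in the optimal list. Of the 12 translation factor genes among them, 5 (41.7%) were. The highest was iff-2, which encodes the elongation factor eIF5A, with F54C9.14, at 90.3 in the pooled list, 21.7 (rank 32) in replicate 1 and 65.4 (rank 44) in replicate 2. It was followed by eef-2 with clsp-1 (62.8), by eef-1G with ctf-4 (42.0) and by eef-1A.1 with rfc-4 (30.2), whose gene products carry out the elongation step. The summit at eef-2 was 10 bp from its TSS. The region at drr-2, a homologue of the initiation factor eIF4H, with set-16, a histone methyltransferase gene, had signal 100.4, rank 61 in replicate 1 and rank 25 in replicate 2.

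Of 16 chaperone genes in divergent pairs, 8 (50%) were in a pair with a region in the optimal list. The share over all genes of divergent pairs was 12.7%. This list and that of translation factors are short. The median GC content of their regions was 39.1% and 39.6%, and that of ribosomal protein regions 40.3%, against 35.3% over all divergent regions. The part of GC content in these shares was not tested. The region of cct-8, a subunit of the cytosolic chaperonin, with Y55F3AR.2 had signal 93.5 in the pooled list and rank 35 in each replicate. The region of hsp-60, the mitochondrial chaperonin, with Y22D7AL.10 had signal 90.3, rank 25 in replicate 1 and rank 37 in replicate 2. These 2 kept nearly the same place in both libraries. The region of cct-1 with mig-5 had signal 67.5, and hsp-110 shared its promoter with rpn-3, a subunit of the proteasome, at 66.1. F44E5.4 and F44E5.5, near-identical genes of the Hsp70 family that were not in the list by their names, flanked a region of signal 70.1, with rank 279 in replicate 1 and rank 61 in replicate 2. Reads of such copies can be hard to place, so this value is uncertain.

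The promoter of sec-61.B and trap-3, which both encode parts of the protein translocation machinery of the endoplasmic reticulum, had signal 70.2, rank 82 in replicate 1 and rank 72 in replicate 2. Of 17 genes of the trafficking list, 2 (11.8%) were in a pair with a region in the optimal list, near the 12.7% of all genes of divergent pairs, the second being vps-32.1 with icd-1 (49.5). Of 15 genes of the respiratory chain and ATP synthase, 1 was, atp-1, the ATP synthase alpha subunit, with mcrs-1 (46.5). Of 17 mitochondrial ribosomal protein genes, 1 was, mrps-7 (36.4), and of 9 tRNA synthetase genes, 1 (11.1%) was, ears-2 (38.3). The shares of these short lists rest on 1 or 2 genes each.

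RNA processing genes in the optimal list were prp-40 with clu-1 (49.5), prp-8 with bath-42 (40.7), prp-19 with K10D2.5 (38.8) and sap-140 with C07H6.9 (35.3). They were 4 of 16 in divergent pairs (25%), against 12.7% of all genes of divergent pairs. Of 14 genes of nuclear transport, 3 (21.4%) were in a pair with a region in the list. These were npp-3 with top-2 (36.2), imb-1 with mfsd-13.1 (28.3) and npp-14 with cel-1 (28.0). Of 8 genes of RNA polymerase and general transcription, 2 (25%) were, mdt-19 with apb-1 (43.8) and taf-4 with pqn-59 (31.3). Among 11 histone genes, 3 (27.3%) were, through 2 regions. The first was that of htz-1, the H2A.Z variant, with wapl-1 (40.8). The other lay between his-67 and his-68, which face away from each other at 1 promoter (38.0). The shares of these lists rest on few genes each. The region of his-67 and his-68 ranked 5847 in replicate 1 and 221 in replicate 2, and histone genes have near-identical copies, so it is uncertain.

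Of the gene lists tied to NHR-10 or to single tissues, several had too few genes in divergent pairs to set against the 12.7% of all genes of such pairs. Of 13 nuclear receptor genes in divergent pairs, 2 (15.4%) were in a pair with a region in the optimal list, nhr-68 and nhr-47, the second with the chaperone gene dnj-19 (35.4). Of the 25 genes of propionate, methionine and branched-chain metabolism, 2 were in divergent pairs and neither had a region in the optimal list, at signals of 11.6 and 7.55. Of 50 chemoreceptor genes, 3 (6%) were, among them srh-2 with icl-1, an enzyme of the glyoxylate cycle (30.5), and sri-5 with rsr-1 (28.8). Of 8 collagen genes and 4 homeobox genes none was. The intestine and germline marker lists had 1 gene each in divergent pairs, neither with a region in the optimal list, and the body wall muscle, neuron and hypodermis lists had none. Over all the lists, 50 of 261 genes were in a pair with a region in the optimal list (19.2%), against 152 of 1331 genes outside them (11.4%).

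The remaining pairs among the 20 of highest signal had mixed roles. The region of K01G5.10 and tasp-1, an orthologue of the protease taspase, had signal 101 in the pooled list, 34.2 (rank 14) in replicate 1 and 69.4 (rank 36) in replicate 2, the best rank of any divergent region in replicate 1. Its summit was 31 bp from the TSS of tasp-1 and 754 bp from that of K01G5.10. The region of tim-1 with Y75B8A.23 (79.7) also had the SL2 RNA gene sls-2.8 within 500 bp, and that of rps-12 had the snoRNA gene F54E7.10. Of the 101 regions, 5 had a tRNA, snRNA, snoRNA or miRNA gene within that distance (4.95%), against 9.70% of one-directional regions in the optimal list. The share was 3.17% in divergent regions outside the list and 2.71% over the pooled list. The regions of gmps-1, GMP synthetase, with the actin capping gene cap-2 (74.4), of nhl-2 with tag-340 (70.1) and of lin-53, a histone-binding protein, with nra-2 (68.1) completed the 20. At gmps-1 the ranks were 257 in replicate 1 and 57 in replicate 2, and at nhl-2 they were 49 and 74.

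**Figure D3:**
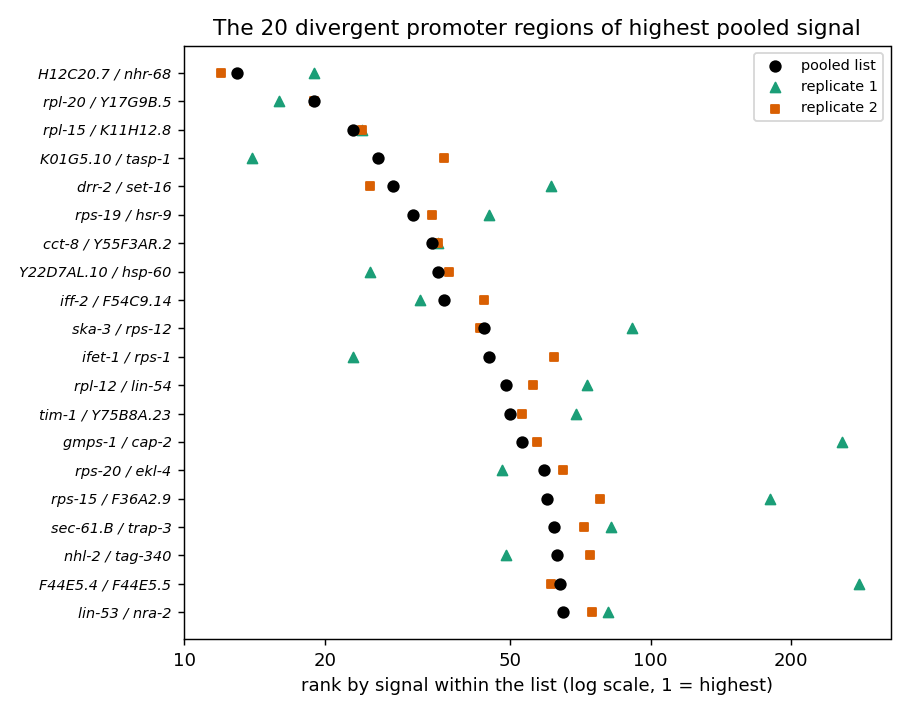
Rank by signal within the pooled list (circles), replicate 1 (triangles) and replicate 2 (squares) for the 20 divergent promoter regions of highest pooled signal, named by the gene on the minus strand and the gene on the plus strand (horizontal axis on a log scale, 1 is highest). The ranks of F44E5.4 and F44E5.5 (279 and 61) and of gmps-1 and cap-2 (257 and 57) lie furthest apart between the replicates.

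All 101 divergent regions of the optimal list had a summit of replicate 2 within 100 bp, and 88 (87.1%, 79.0 to 93.0) had one of replicate 1. For one-directional regions of the optimal list the shares were 98.2% (94.8 to 99.6) and 76.4% (69.1 to 82.6). The pooled and thresholded lists were made from these libraries, so such shares describe the list and are no independent check. Over all 890 divergent regions, 77.2% (74.3 to 79.9) were matched in replicate 2 and 34.6% (31.5 to 37.8) in replicate 1, against 65.3% and 26.0% of the pooled list. A summit was matched in both for 238 of them, in replicate 2 alone for 449, in replicate 1 alone for 70 and in neither for 133.

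Ranks of the 101 regions ran from 12 to 5736 in replicate 2, with a median of 217, and those of the 88 matched in replicate 1 from 14 to 9319, with a median of 322. Replicate 2 gave the better rank in 63 of the 88. Of the 101, 45 were overlapped by the 491 highest regions of both replicates, and 6 by those of neither. Across the 88 regions Spearman's rho of signal between the replicates was 0.557, and Pearson's r of log2 signal was 0.577, given as a description of regions that share libraries and selection by pooled signal.

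The 13 regions without a match in replicate 1 were led by prp-8 with bath-42 (pooled signal 40.7, rank 163 in replicate 2), npp-3 with top-2 (36.2, rank 253) and cdc-6, a replication licensing gene, with acin-1 (36.1, rank 128). Next were enpl-1, the chaperone endoplasmin, with imp-2 (35.8, rank 350) and sap-140 with C07H6.9 (35.3, rank 187). The region of enpl-1 did overlap a replicate 1 region among the 491 of highest signal, but no summit of that list lay within 100 bp. All 5 were near or below the median signal of the 101. The opposite case was sri-5 with rsr-1, which ranked 141 in replicate 1 and 5736 in replicate 2.

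**Figure D4:**
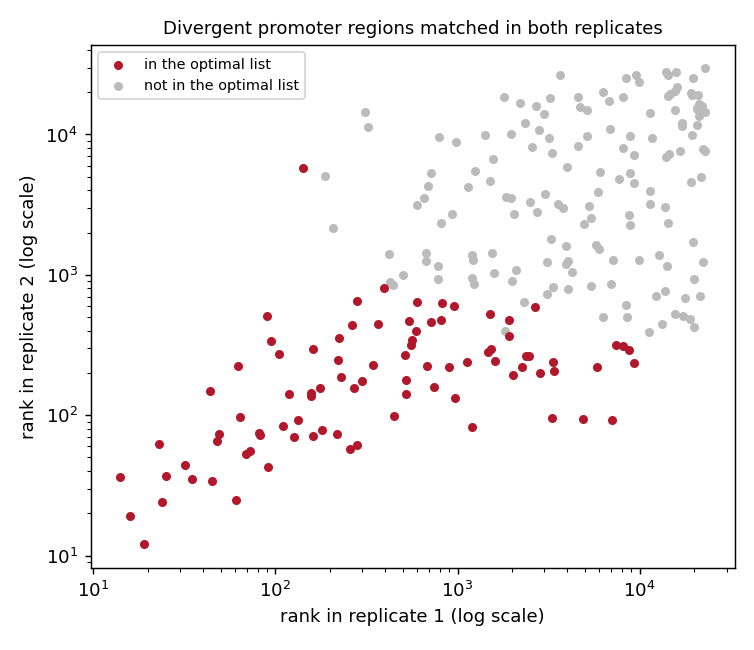
Rank in replicate 1 against rank in replicate 2, both on log scales, for the 238 divergent promoter regions with a summit within 100 bp in both lists. The 88 in the optimal list (red) have a median rank of 322 in replicate 1 and 217 in replicate 2, and the other 150 (grey) mostly lie at higher rank numbers, while the region of sri-5 and rsr-1, in the optimal list, stands apart at 141 and 5736.

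The share in the optimal list was higher at closely spaced pairs than at widely spaced ones. The distance between the TSSs ran from 75 to 1960 bp over the 890 regions, with a median of 492 bp in the 101 of the optimal list and 698 bp in the other 789. Up to 200 bp, 7 of 23 regions were in the list, or 30.4% (13.2 to 52.9). The share was 15.6% (10.7 to 21.8) of 179 regions at 200 to 400 bp, 12.4% (9.08 to 16.4) of 339 at 400 to 800 bp and 6.88% (4.46 to 10.1) of 349 beyond 800 bp. The median signal of all regions in these bins was 15.8, 13.3, 11.0 and 9.51. With the highest regions of replicate 1 as peaks, the share was 13.0% up to 200 bp, 6.70% at 200 to 400 bp, 9.73% at 400 to 800 bp and 4.58% beyond, so without replicate 2 the shares of the closer bins did not follow the order of spacing.

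Summits of the 101 regions lay a median of 146 bp (131 to 168) from the nearer TSS and 351 bp from the other, against 186 bp (166 to 203) and 495 bp in the 789 outside the list. The nearer distance ran from 3 to 751 bp, and 19 of the 101 were within 50 bp of a TSS. The regions of the list also had closer TSS pairs. With spacing up to 1000 bp the median nearer distance was 134 bp in the list and 141 bp outside it. Up to 200 bp spacing it was 14 bp in the list and 29 bp outside. At 200 to 400 bp it was 100 and 78 bp, and at 400 to 800 bp 169 and 164 bp. Beyond 800 bp it was 286.5 and 373 bp, so the order differed between bins. With place counted from the TSS of the minus-strand gene at 0 to that of the plus-strand gene at 1, the central part, from 0.333 to 0.667, held 45 of the 101 (44.6%, 34.7 to 54.8) and 356 of the 789 (45.1%, 41.6 to 48.7). The rule itself keeps summits of widely spaced pairs near the middle. With spacing up to 1000 bp, where it does not, the shares were 42.7% (32.3 to 53.6) of 89 and 41.2% (37.2 to 45.3) of 585. With the highest regions of replicate 1 as peaks the central part held 56.25%.

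The place differed within the 101, in a split chosen after the data were seen. Of the 50 regions of highest signal 31 were in the central part (62%, 47.2 to 75.3), against 14 of the next 51 (27.5%, 15.9 to 41.7), and 52 of the 99 regions with the next signals below (52.5%, 42.2 to 62.7). The share did not move in 1 direction with signal. Of the 101 summits, 60 were closer to the plus-strand gene, 40 to the minus-strand gene and 1 equally far from both, while outside the list the counts were 385, 400 and 4. Of the 101, 3 lay inside the body of a further protein-coding gene, against 53 of the 789. With spacing up to 1000 bp the counts were 3 of 89 and 9 of 585, so the lower share in the list was not seen there.

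**Figure D5:**
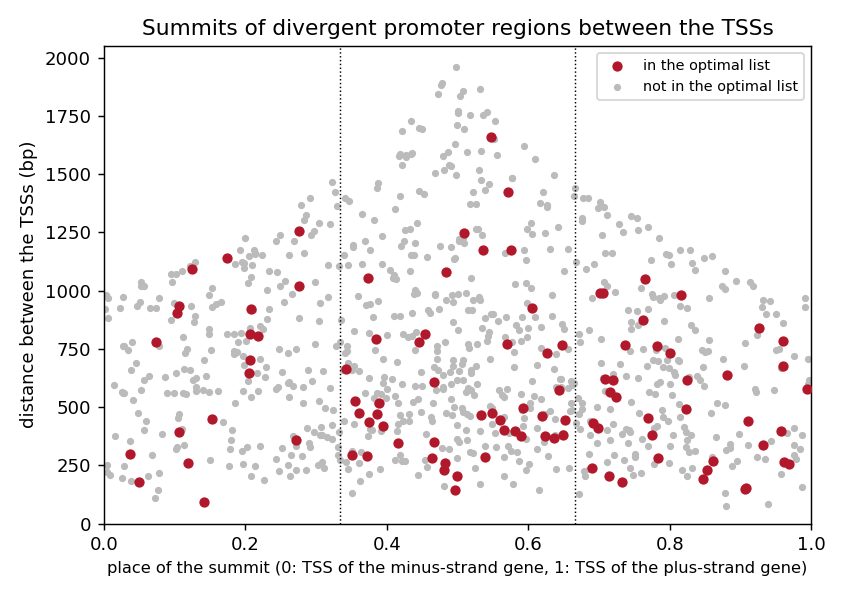
Place of the summit between the TSSs (horizontal, 0 at the TSS of the minus-strand gene and 1 at that of the plus-strand gene) against the distance between the TSSs in bp, for 101 divergent promoter regions in the optimal list (red) and 789 outside it (grey). Dotted lines bound the central part, and the empty upper corners come from the rule that both TSSs lie within 1000 bp.

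Among the promoters with the widest spacing, over 800 bp, the highest signals were at rpl-15 and K11H12.8, at Y22D7AL.10 and hsp-60, and at iff-2 and F54C9.14, with distances of 814, 813 and 935 bp between the TSSs. The pair with most regions was C37A2.7 and pqn-20, with 3 regions of signal 9.998, 7.90 and 6.82, none of them in the optimal list. C37A2.8 and E02D9.1 had a region of 47.5 and another of 9.33, and apb-1 and mdt-19 one of 43.8 and another of 6.40. These pairs were named by their number of regions and highest signal, and say nothing of the other pairs with 2 regions. The regions of lowest signal in the optimal list were at imb-1 (28.3), npp-14 (28.0) and gcy-33 with cpr-9 (27.6).

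Divergent regions on III and I were in the optimal list in 14.5% (9.79 to 20.4) and 13.1% (8.59 to 18.9) of cases, those on IV in 13.0% (8.12 to 19.3), those on II in 9.80% (5.59 to 15.7) and those on V in 7.01% (3.98 to 11.3). One-directional regions ran from 4.18% on III to 1.85% on V. On each of the 5 autosomes the divergent share was the higher, and the intervals of the 5 divergent shares overlapped one another.

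Of the 7 words searched for within 100 bp of the summit, GAGAGA was in 28.7% of the 101 divergent regions, 15.5% of the other 789 and 13.8% of all pooled windows. One-directional regions of the optimal list had it in 27.3%, and autosomal ones of the list over 1000 bp from a TSS in 60.4%. GACGCA was in 28.7% of the 101, 10.4% of the 789 and 5.68% of all windows, against 33.3% of one-directional regions of the list. TGATAA was in 5.94% of the 101 and 20.4% of the 789, against 19.2% of all windows. One-directional regions had it in 13.3% inside the list and 20.8% outside it, and the whole optimal list had it in 9.57%. The receptor site AGTTCA was in 4.95% of the 101 and 9.13% of the 789 (12.7% of all windows), and AGGTCA in 4.95% and 6.34% (4.90%). CACGTG was in 6.93% and 3.30% (3.81%), and TGACGT in 5.94% and 9.25% (6.28%). In one-directional regions AGTTCA was in 7.27% inside the list and 13.0% outside it, and AGGTCA in 4.24% and 4.88%. CACGTG was there in 6.67% and 4.46%, and TGACGT in 9.70% and 6.20%. These words differ in GC content, which was higher in the optimal list, and a match is not a binding site.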

How the data were processed

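ChIP-seq of NHR-10 in 2 replicates of whole L2 larvae was analysed from 4 deposited ce11 region lists in the narrowPeak layout. Per the deposited notes, a replicate list comes from 1 alignment with a control, the pooled list from the alignments of both replicates with it, and the optimal list from these by IDR. The caller, the aligner, the IDR cutoff and the scaling between lists are not given in the sources used here. The deposited signal value of each region is the authors' and was used to describe and rank regions within a list. The ce10 lists were not used.

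TSSs were 5′ ends of protein-coding genes in the Ensembl annotation of WBcel235, which is ce11, and summits were the start plus column 10. Regions were called in the optimal list if identical to one of its regions. Replicate summits were matched to the nearest within 100 bp, and ties in signal share the better rank. Shares have exact Clopper-Pearson intervals and medians exact order-statistic intervals, at 95%. No test was run. The labels give the replicates as separate biosamples. Members, 22 gene lists (by symbol), motifs and the rule for named genes were chosen with earlier results of these data known. That rule took the 20 regions of highest signal, the 5 of best rank in each replicate, up to 4 per gene list in the optimal list with all pairs of 1 list, the 3 lowest in it, the 5 highest in it unmatched in a replicate, the 3 pairs with most regions and the 3 highest of the widest spacing. 1 region that the rule names is not reported here. The code was tested on simulated data. Python 3.11.15, numpy 2.4.6, pandas 2.3.3 and scipy 1.17.1 were used.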

Additional observations from a re-analysis of the deposited data

How the results depend on the processing

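Of 88 values recomputed for 12 results under the alternatives, 56 stayed within the interval of the reported value or, for counts, within 1.5 times of it. The divergent share stood above the one-directional share under all 7 alternatives for which both were computed. With both TSSs within 500 bp and within 2000 bp, the regions numbered 469 and 1753, their share in the optimal list was 14.3% and 7.82%, their median signal 12.4 and 9.51, and their matched share 37.95% and 30.7% in replicate 1 and 80.8% and 73.2% in replicate 2. At 500 bp the central part held 55.2%, the share beyond 800 bp spacing was 3.85% and 67 pairs had a region in the list. One region per pair gave a median signal of 11.4. With 1 replicate left out, the share ran from 7.19% to 12.2%, pairs from 61 to 105, the central part from 46.8% to 56.25%, the nearer TSS from 146 to 170 bp, and the share from 13.0% to 26.1% up to 200 bp spacing and from 6.70% to 20.7% at 200 to 400 bp. Lower values of the share of regions, of the pairs and of the shares by spacing are those without replicate 2. For the central part and the nearer TSS the lower values, 46.8% and 146 bp, are those without replicate 1. The 50% of peaks of highest signal, which by construction hold fewer peaks, gave 6.29%, 56 pairs, 58.9% in the central part, and 9.50%, 6.19% and 4.01% in the 3 wider spacing bins. Matching within 50 bp and 200 bp gave 23.6% and 44.8% in replicate 1 and 66.1% and 83.7% in replicate 2, and the 50% of each replicate list of highest signal 26.1% and 61.8%. Apart from the fewer peaks named, the cause of these shifts was not tested. Without ribosomal protein pairs the share was 10.4%, and away from small non-coding RNA genes 11.2%, both chosen after seeing the data. No paired analysis was possible because there was 1 group. Depth is unknown, so shares cannot be weighed by it.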

Other observations

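A word of 8 bases was noticed in 2 of the printed windows, between rpl-20 and Y17G9B.5 and between rpl-15 and K11H12.8, and then counted within 100 bp of all summits on both strands. CGTAAATC was in 9 of the 101 divergent regions of the optimal list (8.91%, 4.16 to 16.2) and in 28 of the other 789 (3.55%, 2.37 to 5.09). Without the windows it was noticed in, it was in 7 of 99 (7.07%, 2.89 to 14.0). One-directional regions held it in 7 of 165 in the optimal list (4.24%, 1.72 to 8.55) and in 1.18% outside it (0.891 to 1.53), and all pooled windows in 1.05% (0.935 to 1.17). Of the 16 peaks only downstream of a TSS, 2 held it. None of the 111 autosomal peaks over 1000 bp from a TSS held it, which allows a share of up to 2.70% taken as 3 counts, or up to 3.27% by the exact interval. Of the 9 regions, those at rpl-20, rpl-15 and rps-12 had a gene of the ribosomal protein list, which was set by symbol. The others lay at hmgs-1, the hydroxymethylglutaryl-CoA synthase of the mevalonate pathway, at htz-1, at sip-1, at the ubiquitin gene ubq-2, at jtr-1 and at dnj-22. Signals of the 9 had a median of 40.8 and those of all 101 a median of 40.1. The word was chosen after the data were seen and no test was made, so these counts are a description.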
